A study of Mus musculus with 9 samples.

Results

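Transcripts of inhibitory and excitatory spinal interneurons were followed in laser-captured motor neurons (MNs). The set holds 8 genes, Slc6a5, Slc32a1, Gad1, Gad2, Slc17a6, Slc17a7, En1 and Pax2, out of 30176 genes with a transcript cluster of a single symbol. They were taken by their symbol in the platform annotation, and each was read by 1 transcript cluster, a set of probes along the exons of a gene. The set was chosen by measured values, the differences of Slc6a5 and Slc32a1 between the extensor digitorum longus (EDL) and gastrocnemius (GS) pools, which were among the largest of that contrast. The difference between EDL and GS is therefore given as a description, without a test.

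RNA came from 9 wild-type FVB mice of the same litter, 3 for each muscle. WGA-HRP, a lectin carried back along the axon to the MN cell body, which can also pass on to connected neurons, was injected at postnatal day 14 into the EDL (disease-resistant, 1 µl), the GS (intermediate, 3 µl, abbreviated GC in the labels) or the tibialis anterior (TA, vulnerable, 3 µl). Cords were collected 48 h later, and the stained cells of each mouse gave 1 array. The labels give the genotype as wild type, while the design text of the series speaks of an SMA background. The injected volume and, for the TA pool, the low mouse numbers (0, 1 and 3, against 11 to 33 elsewhere) run with the muscle, so their part in a difference cannot be told apart from that of the pool. The labels name cervical cord and the text of the study lumbar cord for these hindlimb MNs, and the section thickness is 20 µm in the labels and 35 µm in the methods.

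In the spinal cord, inhibitory interneurons release glycine, GABA or both onto MNs. Glycine is taken back into glycinergic terminals by GlyT2 (Slc6a5), GABA is made by the glutamate decarboxylases GAD67 (Gad1) and GAD65 (Gad2), and both transmitters are loaded into vesicles by VGAT (Slc32a1). Excitatory terminals load glutamate through VGLUT2 (Slc17a6), the main form in spinal interneurons, or VGLUT1 (Slc17a7), the form of muscle and skin afferents and of corticospinal axons. En1 is the homeodomain factor of the ventral V1 class, which takes in Renshaw cells, and Pax2 marks many developing inhibitory interneurons. These mRNAs sit mainly in the cell bodies of the neurons that use them, whereas MNs are cholinergic and are crowded by the terminals of such neurons.

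The promoters of 4 of the 6 members that were highest on the same GS array are shown, 1 each for glycine uptake, vesicle loading, GABA synthesis and glutamate loading. Each is the RefSeq window of GRCm38.p6 from 250 bases before to 50 after a start site (the upstream window where the table holds 2, as for Slc6a5 and Slc17a6). Capitals mark the E-box CANNTG and the hexamer TTCCCA, both searched on either strand, the letters of the paired site bound by Ptf1a and Rbpj, which specify inhibitory neurons of the dorsal horn. All 8 members had a window in the table.

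Slc6a5, chr7:49910049-49910348, + strand: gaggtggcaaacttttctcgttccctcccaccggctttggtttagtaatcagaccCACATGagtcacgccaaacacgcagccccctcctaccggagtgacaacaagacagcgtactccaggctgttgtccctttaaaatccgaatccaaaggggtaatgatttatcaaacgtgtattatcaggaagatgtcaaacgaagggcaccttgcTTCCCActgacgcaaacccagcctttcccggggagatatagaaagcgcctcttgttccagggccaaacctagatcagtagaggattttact
Slc32a1, chr2:158610508-158610807, + strand: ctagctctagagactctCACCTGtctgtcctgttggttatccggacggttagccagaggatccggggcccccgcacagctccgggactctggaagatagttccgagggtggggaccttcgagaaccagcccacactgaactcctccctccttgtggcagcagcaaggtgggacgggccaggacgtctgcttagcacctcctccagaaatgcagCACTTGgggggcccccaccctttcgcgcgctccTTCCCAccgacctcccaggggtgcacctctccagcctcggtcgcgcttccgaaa
Gad2, chr2:22622077-22622376, + strand: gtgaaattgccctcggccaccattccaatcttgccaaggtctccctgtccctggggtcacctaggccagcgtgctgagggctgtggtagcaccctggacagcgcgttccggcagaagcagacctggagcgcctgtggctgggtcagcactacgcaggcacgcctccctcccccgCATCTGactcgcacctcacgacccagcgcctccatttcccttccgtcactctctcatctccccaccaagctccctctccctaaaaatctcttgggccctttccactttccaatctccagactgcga
Slc17a6, chr7:51621580-51621879, + strand: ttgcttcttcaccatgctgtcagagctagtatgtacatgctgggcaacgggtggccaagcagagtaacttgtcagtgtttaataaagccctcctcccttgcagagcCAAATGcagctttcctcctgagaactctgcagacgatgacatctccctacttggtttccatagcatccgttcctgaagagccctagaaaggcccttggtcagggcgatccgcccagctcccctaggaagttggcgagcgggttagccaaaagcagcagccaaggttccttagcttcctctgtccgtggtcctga

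The window of Slc6a5 held an E-box at -195 and TTCCCA at -41, and that of Slc32a1 held E-boxes at -233 and -37 and TTCCCA at -4, counted from the start site to the first base of the match. The windows shown for Gad2 and Slc17a6 held 1 E-box each and no TTCCCA. Matches overlapped in none of these windows. An E-box was present in 72.3% and TTCCCA in 25.6% of all 32851 promoter windows, so the letters are common, and a match is a description and not a binding site.

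Slc6a5 was the only member with a clear signal. On every array it lay above the 95th percentile of the 5222 negative control probe sets of that array (9.62 to 11.002 on the log2 scale), at a percentile of 97.7 to 99.0 among them. The other 7 members lay below that level on all 9 arrays. Slc32a1 and Gad1 were above the median of the negative controls (5.98 to 6.48) on all 9 arrays and Gad2 and Slc17a6 on 8, whereas Slc17a7, En1 and Pax2 were below it on all 9. For these 7 members the signal on each array is given, but no size is given to a difference between pools.

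**Figure D1:**
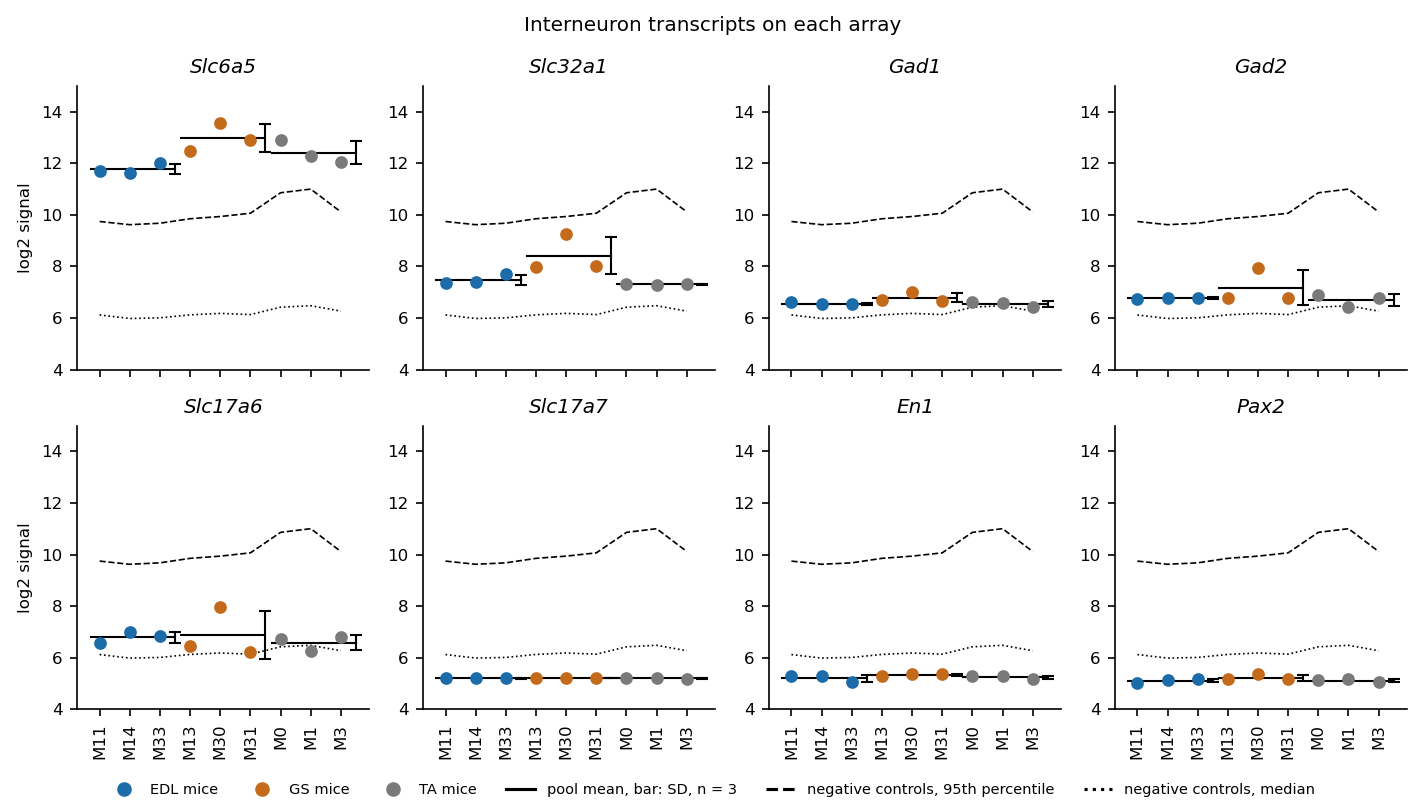
Log2 signal of the 8 members on each of the 9 arrays (points), with the mean and SD of each pool (n = 3 mice) and the 95th percentile and median of the negative controls of each array. Slc6a5 lies above the dashed line on all arrays, and the points of Slc32a1, Gad2 and Slc17a6 for GS mouse M30 lie above their other points but under the dashed line.

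**Figure D2:**
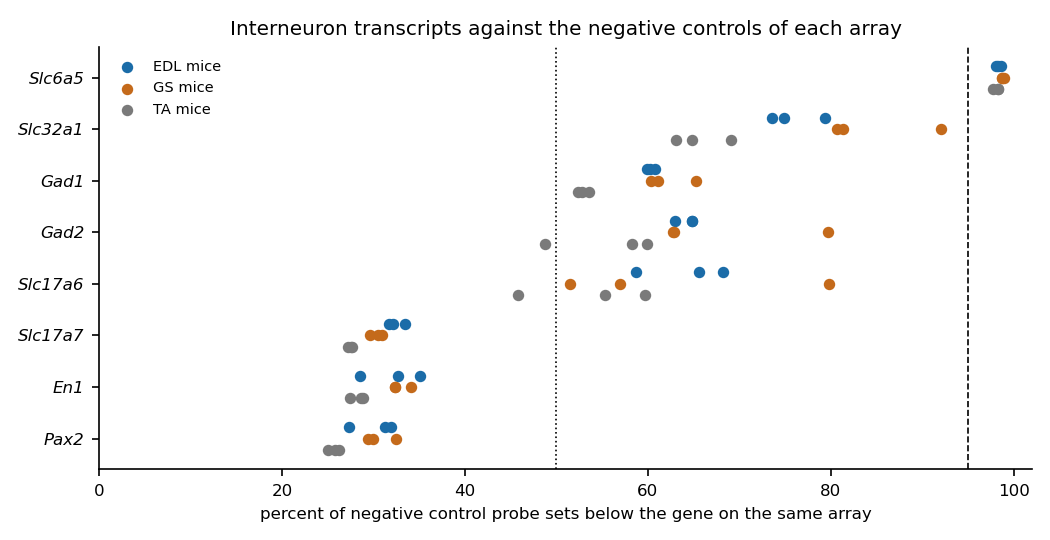
Share (percent) of the negative control probe sets of an array that lie below each member on the same array, 1 point per mouse, with the median (dotted) and the 95th percentile (dashed) of those controls. Slc6a5 is at 97.7 or more on every array, and Slc17a7, En1 and Pax2 are at 35.1 or less.

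Slc6a5, the glycine transporter of glycinergic neurons, had its lowest log2 signals in the EDL pool. Its log2 signal was 11.71, 11.63 and 11.996 in EDL mice M11, M14 and M33, 12.49, 13.57 and 12.91 in GS mice M13, M30 and M31, and 12.90, 12.30 and 12.04 in the TA mice (M0, M1 and M3). All EDL values were below all GS and all TA values, while the GS and TA values overlapped. Against the negative controls of its own array, Slc6a5 stood at the percentiles 98.1 to 98.6 in EDL, 98.7 to 99.0 in GS and 97.7 to 98.3 in the TA pool. On that scale the EDL and TA pools overlapped. The pool means were 11.78 ± 0.19 in EDL, 12.99 ± 0.54 in GS and 12.41 ± 0.45 in the TA pool (SD, n = 3 mice each). The order of the means was therefore GS, TA and EDL, and the neighbours GS and TA did not differ beyond their spread.

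Between EDL and TA the difference in Slc6a5 was -0.63 on the log2 scale (standard error 0.31, 95% interval -1.36 to 0.10), which limma did not call (adjusted p = 0.281 with Benjamini-Hochberg adjustment over 65956 clusters). Between GS and TA it was 0.58 (standard error 0.31, 95% interval -0.15 to 1.30, adjusted p = 0.420 from limma). Between EDL and GS it was -1.21 (standard error 0.31), given without a test. The pools share arrays between these comparisons, and the EDL and GS arrays also served to choose Slc6a5 and Slc32a1, so no p of these genes is independent of the choice. The GS-TA difference was 0.29 without GS mouse M30, and the EDL-TA difference was -0.39 without TA mouse M0 and -0.25 without both M0 and M1, whose arrays stood apart from the rest.

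Slc32a1, the vesicular transporter for GABA and glycine, was highest in the GS pool. Its signal was 7.35, 7.38 and 7.70 in EDL mice M11, M14 and M33, 7.998, 9.25 and 8.01 in GS mice M13, M30 and M31, and 7.32, 7.30 and 7.31 in the TA mice (M0, M1 and M3). All GS values were above all EDL and all TA values, which lay closer together. Against the negative controls of its own array, Slc32a1 stood at the percentiles 73.6 to 79.4 in EDL, 80.6 to 92.0 in GS and 63.0 to 69.1 in the TA pool. The GS mean of 8.42 ± 0.72 against the TA mean of 7.31 ± 0.01 (SD, n = 3) gave an adjusted p of 0.160 from limma, on GS arrays that served to choose the gene, and the EDL mean of 7.48 ± 0.19 against the TA mean gave an adjusted p of 0.796.

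The enzymes of GABA synthesis gave low signals. Gad1 had 6.61, 6.53 and 6.55 in EDL mice M11, M14 and M33, 6.71, 6.99 and 6.67 in GS mice M13, M30 and M31, and 6.61, 6.60 and 6.42 in the TA mice (M0, M1 and M3). All GS values were above all EDL and TA values (GS against TA, unadjusted p = 0.0326 and adjusted p = 0.270 from limma). Gad2 had 6.76, 6.78 and 6.80 in EDL mice, 6.80, 7.95 and 6.80 in GS mice M13, M30 and M31, and 6.89, 6.42 and 6.80 in the TA mice (M0, M1 and M3). Only M30 stood out in Gad2, and M33, M13, M31 and M3 held the same deposited value. Tied values narrow the spread between mice, as also for Slc17a7.

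The vesicular glutamate transporters followed different patterns. Slc17a6 had 6.55, 6.98 and 6.84 in EDL mice M11, M14 and M33, 6.46, 7.96 and 6.21 in GS mice M13, M30 and M31, and 6.71, 6.25 and 6.79 in the TA mice (M0, M1 and M3). The pools overlapped, and within the GS pool M30 was the highest and M31 the lowest of all 9 arrays. Slc17a7 ranged from 5.19 to 5.23 over the 9 arrays, with the same value on 6 of them, below the median of the negative controls throughout. Adjusted p for Slc17a6 was 0.821 between EDL and TA and 0.788 between GS and TA, and for Slc17a7 0.893 and 0.957.

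Both transcription factors were at the level of the dimmer negative controls. En1 ranged from 5.04 to 5.28 in EDL, 5.29 to 5.36 in GS and 5.18 to 5.28 in the TA pool, and Pax2 from 5.03 to 5.15, 5.15 to 5.36 and 5.05 to 5.15 in the same order. The percentiles among the negative controls were 27.4 to 35.1 for En1 and 25.0 to 32.5 for Pax2. At this signal the arrays do not show whether either gene was expressed.

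Of the 8 members, none was called between EDL and TA and none between GS and TA at an adjusted p under 0.05 from limma, against 5.08% and 0.634% of all 65956 clusters. At an unadjusted p under 0.05 the counts were 0 and 2 (Slc32a1 and Gad1), against 22.8% and 15.7% of all clusters. The GS mean was the highest of the pool means for 7 members, all but Slc17a7, in a list that arose from the EDL-GS contrast. No share over all clusters was computed for this count, so it describes these members only. For Slc17a6 the high GS mean rested on M30, since the other GS arrays averaged 6.34, against means of 6.79 in EDL and 6.58 in TA. For Gad2 the other GS arrays averaged 6.80, close to the means of 6.78 in EDL and 6.70 in TA. All GS arrays were above all TA arrays for 3 members (Slc32a1, Gad1 and En1), as for 7.53% of all clusters. All EDL arrays were below all GS arrays for 4 members (Slc6a5, Slc32a1, Gad1 and En1), against 6.65% of all clusters, in the contrast from which the list arose. That count was 3 with the arrays centred on their medians and 2 after quantile normalization. Slc6a5 alone had all EDL arrays below all TA arrays, as did 14.5% of all clusters. In these bulk captures, fewer cells of a type and less RNA per cell cannot be told apart.

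A single GS mouse carried the highest values of most members. M30 was strictly the highest of the 9 arrays for 6 of the 8 members, Slc6a5, Slc32a1, Gad1, Gad2, Slc17a6 and Pax2, whereas it was so for 5.71% of all clusters. The values of M30 in Slc6a5 and Slc32a1 were known when the list was made, and 4 of the other 6 members showed the same. Of the 6 members highest on M30, Slc6a5 alone was above the negative control level of that array (9.94), so for the others the order of the arrays is that of signals within the range of the negative controls.

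Among 2751 genes with a mean above the negative control level, ranked by the signal on M30 minus the mean of the other GS arrays, the adiponectin receptor gene Adipor2 was first (12.48 on M30, against 11.62 and 11.21 on M13 and M31) and Slc6a5 second, followed by Usp54, the calcium sensor gene Vsnl1, the granin gene Scg2, the ER chaperone gene Hspa5, Rpl32l, Impact, Tiparp and Herpud1. The positive and negative control probe sets were separated at 0.831 (area under the ROC curve) on M30. This value was 0.838 and 0.836 on M13 and M31 and 0.844 to 0.854 on the EDL arrays. On the TA arrays it was lower than on M30, at 0.779, 0.778 and 0.828 on M0, M1 and M3. The part of array quality in the values of M30 was not tested.

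Several correlations between members were lower once M30 was left out. Pearson's r between Slc6a5 and Slc32a1 was 0.76 over 9 arrays and 0.44 over 8 without M30, that between Slc32a1 and Gad2 0.88 and 0.27, and that between Slc6a5 and Slc17a6 0.40 and -0.56. These values describe 9 arrays that share pools and a normalization, and all members but Slc6a5 were under the negative control level. Slc6a5 and Slc32a1 were also chosen by their EDL-GS differences on these arrays, so the choice favoured a positive r between them. Between Slc32a1 and Gad1 r was 0.91 over 9 arrays and 0.64 without M30.

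The classes of interneuron that could carry these transcripts were not seen through their listed genes, most of them transcription factors. The MN factors Isl1, Isl2, Mnx1, Lhx3 and Foxp1 also stayed under the 95th percentile of the negative controls on all arrays. A signal under that level therefore does not show whether a class was present. The list of ventral classes (V1, V0, V2 and V3) also held Lbx1, Lhx1 and Lhx5, which are not confined to these classes. Of its 19 genes, 15 were measured by a cluster of their own. None of them passed the 95th percentile of the negative controls on any array, and 9 were below the median on all arrays, among them Chrna2, the nicotinic receptor gene of Renshaw cells. All 9 measured dorsal horn factors of 10 listed, Ptf1a (pool means 4.16, 4.12 and 4.23 in EDL, GS and TA MNs) included, stayed under the 95th percentile, and 7 of them were below the median on all arrays. Neither list had a called gene in limma in either comparison. M30 was strictly the highest array for 4 of the 15 genes of the ventral list and 1 of the 9 dorsal horn factors, against 5.71% of all clusters. All of these signals were within the range of the negative controls.

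Among 13 measured peptides and calcium-binding proteins of interneurons, of 14 listed, Calb2 alone passed the negative control level on all arrays. Calb2, the calretinin gene, averaged 14.77 ± 0.05 for the EDL pool, 13.38 ± 0.15 for GS and 14.32 ± 0.43 for TA (SD, n = 3), so that its order of pools was the reverse of that of Slc6a5. It was not called between GS and TA (-0.94, standard error 0.20, adjusted p = 0.0881 from limma) or between EDL and TA (0.45, adjusted p = 0.229). The opioid precursor gene Penk, the cholecystokinin gene Cck and the neuropeptide Y gene Npy, all below the negative control level, gave adjusted p of 0.116, 0.0708 and 0.265 between EDL and TA. Pvalb, the parvalbumin gene, was strictly highest on M30 (8.67, against 8.27 and 8.23 on M13 and M31), and Gal was the only other gene of this list to be so.

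Genes that supply or clear the inhibitory transmitters were measured for 11 of 14 listed, 5 of them above the negative control level on all arrays. None was called between EDL and TA or between GS and TA in limma, and 4 and 0 of the 11 had an unadjusted p under 0.05, against 22.8% and 15.7% of all clusters. The list's median was -0.21 between EDL and TA and -0.05 between GS and TA, beside -0.04 and -0.02 over all clusters, with 6 of the 11 genes under the negative control level on every array. Slc6a9, the glycine transporter GlyT1, which astrocytes carry, averaged 12.55 ± 0.17 for EDL, 12.89 ± 0.11 for GS and 12.97 ± 0.25 for TA. Its EDL-TA difference of -0.42 (standard error 0.14) had an adjusted p of 0.130. Slc6a11, the astrocytic GABA transporter GAT3, averaged 15.22 ± 0.21 for EDL, 15.66 ± 0.24 for GS and 15.71 ± 0.25 for TA (EDL-TA -0.49, standard error 0.18, adjusted p = 0.154). The means of both, like that of Slc6a5, were lowest in the EDL pool. Slc38a2, a glutamine transporter gene, was strictly highest on M30 (12.18, against 11.59 and 11.72 on M13 and M31).

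On the receiving side of the inhibitory synapse, 12 of 16 listed genes were measured and 6 were above the negative control level on all arrays. Glra1, the adult glycine receptor subunit gene, averaged 15.71 ± 0.02 for EDL, 15.61 ± 0.08 for GS and 15.97 ± 0.26 for TA, and Glrb, the subunit that gephyrin binds, 13.86 for EDL (the same value on all arrays), 13.81 ± 0.06 for GS and 13.95 ± 0.07 for TA, neither of them called (EDL against TA, adjusted p = 0.255 and 0.368 from limma). None of the 12 genes was called in either comparison, while 2 between EDL and TA and 4 between GS and TA had an unadjusted p under 0.05, against 22.8% and 15.7% of all clusters. The nearest was Glra2, the fetal subunit gene, below the negative control level, at 7.46, 7.13 and 8.15 in EDL, GS and TA MNs (adjusted p = 0.0547 between EDL and TA and 0.05003 between GS and TA, just over the threshold). None of these 12 genes was strictly highest on M30, against 5.71% of all clusters.

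The genes whose pattern over the 9 arrays was most like that of Slc6a5 were, among 2751 genes above the negative control level, Klhl2 (Pearson's r = 0.89), the receptor phosphatase gene Ptprz1 (0.88), Lcor (0.86), the matrix protein gene Sparc (0.85), Gna13 (0.84), Tram1 (0.84), the tissue factor gene F3 (0.83), the adhesion molecule gene Hepacam (0.83), the hedgehog receptor gene Ptch1 (0.82) and Ly6c2 (0.81). Ptprz1, for example, had 11.48 to 11.56 in EDL, 11.81 to 12.21 in GS and 11.81 to 12.11 in the TA pool. After the pool means were subtracted, Ptpn11 (0.96), Luzp2 (0.90) and Arrdc3 (0.90) came first, and 1 of 10 genes, Klhl2, was on both lists. For Slc32a1 the nearest were Tspan2 (0.93), Arrdc3 (0.93) and Son (0.90), and 4 of 10 genes were on both lists.

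**Figure D3:**
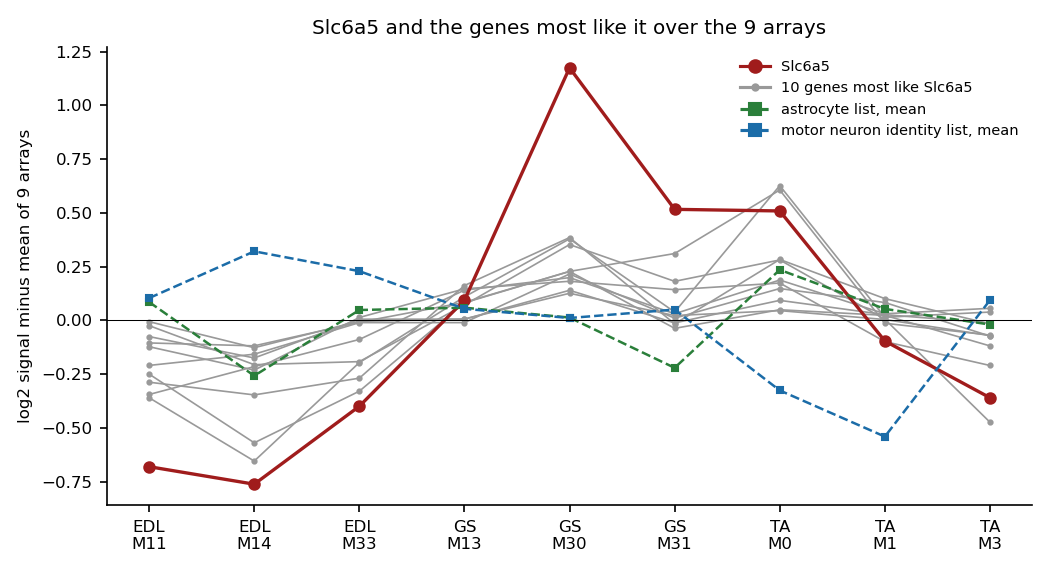
Log2 signal minus the mean of the 9 arrays for Slc6a5, for the 10 genes with the highest Pearson correlation to it, and for the mean of the astrocyte and motor neuron identity lists. Lines join the values of a gene or list, and arrays of a pool have no order. Slc6a5 is below its mean on all EDL arrays and spans a wider range than the 10 genes.

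The labels name the captured cells as MNs, and part of the MN markers gave a clear signal on all arrays. Of 10 measured genes of MN identity (11 listed), 5, among them Chat and the vesicular acetylcholine transporter gene Slc18a3, were above the negative control level on all arrays, and Lhx3 was below the median on all. Chat averaged 13.57 ± 0.12 in EDL, 13.32 ± 0.06 in GS and 13.23 ± 0.33 in the TA pool. The mean level of the list was 10.52 to 10.74 in EDL, 10.43 to 10.47 in GS and 9.88 to 10.51 in the TA pool, and it was lowest of the GS pool on M30 (10.43, against 10.47 on each of the others). Isl1, under the negative control level, went the other way and was strictly highest on M30 (9.52, against 9.28 and 9.10 on M13 and M31).

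Glial and vascular transcripts were measured in the same captures. Of 7 astrocyte genes, 2, Slc1a2 and S100b, were above the negative control level on all arrays. The glutamate transporter gene Slc1a2 was lower in EDL than in TA (-0.43, standard error 0.09, adjusted p = 0.0438 from limma), the only called gene of the list. S100b went the other way, with 14.78 to 14.95 in EDL and an overlapping 14.42 to 14.81 in TA, as did the mean of Gfap. The remaining astrocyte genes had lower means in EDL than in TA, and the list median was -0.12. The mean level of the list was 9.87 to 10.21 in EDL, 9.91 to 10.19 in GS and 10.11 to 10.36 in the TA pool. Of 8 oligodendrocyte genes 4 were above the level, with means of 11.40 to 11.50, 11.61 to 11.63 and 11.37 to 11.74 in the same order. None of 8 microglial genes passed it on any array (means of 6.79 to 6.85, 6.80 to 6.88 and 6.55 to 6.82). Of 7 endothelial and pericyte genes, none was above it on all arrays, and the tight junction gene Cldn5 was the only called gene, with means of 9.27 in EDL, 9.39 in GS and 8.004 in TA (EDL-TA adjusted p = 0.0331, no size given, since its signal passed the level on 1 of the 9 arrays). In the EDL-TA comparison all 7 reached an unadjusted p under 0.05 from limma, against 22.8% of all clusters. Cldn5 was higher in EDL, whereas the other genes of the list had lower means in EDL than in TA. The list median was -0.45, beside -0.04 over all clusters. Of the 7 genes, 5 were under the level on every array, at list means of 8.41 to 8.70, 8.66 to 8.89 and 8.64 to 9.10. On M30 the astrocyte mean was 10.14, between those of M13 (10.19) and M31 (9.91), and the oligodendrocyte mean was 11.63, against 11.62 and 11.61. The part of these cell types in the pattern of the interneuron transcripts was not tested.

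In a principal component analysis M0 and M1 of the TA pool scored 77.3 and 98.5 on the leading component (56.5% of the variance), against -45.6 to 8.72 for the other 7 arrays. Their positive and negative controls were also separated less well (area under the ROC curve 0.779 and 0.778, against 0.828 to 0.854), and the 95th percentile of their negative controls was 10.86 and 11.002, against 9.62 to 10.12. The percentile of Gad1 among the negative controls was 59.9 to 60.8 in EDL and 52.3 to 53.6 in the TA pool, although its signals in these pools overlapped.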

How the data were processed

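The values are log2 signals that the authors deposited, background-corrected, normalized and summarised per transcript cluster of the GeneChip Mouse Transcriptome Assay (sst-RMA in the methods, RMA and Transcriptome Analysis Console in the submitters' processing notes; their settings were not stated in the labels or methods). They were used as deposited, over 65956 clusters, after 6732 array controls were left out. Normalization across arrays and ties between arrays narrow the spread of dim clusters. Gene names come from the platform annotation, by clusters with 1 symbol, and the brightest cluster stood for a gene. Chromosomes and promoter sequences come from RefSeq (GRCm38.p6).

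Pools were taken from the sample labels. Comparisons used limma 3.58.1 (R 4.3.3), with 1 mean per pool, a single spread over all 9 arrays, two-sided tests and Benjamini-Hochberg adjustment over all clusters at 0.05. Each array is 1 mouse, so a p-value reflects variation among mice. Precision is limited by how many arrays there are. Depth does not apply to arrays, and the negative controls served as the background. The procedure was tested on simulated data.

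The members and lists were chosen with earlier results of these data known. Beyond the 8 members, the genes named are up to 4 of each list (those called, otherwise those with the largest moderated t between EDL and TA), the 10 genes most correlated with Slc6a5 and with Slc32a1, and the 10 highest on M30 over the other GS arrays. Other genes were named after their values were seen. Alternatives were other scalings, a filter on dim clusters, other estimates of the spread, the plain test and leaving out mice. Each member had 1 cluster, so that another cluster could not be tried.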

Additional observations from a re-analysis of the deposited data

How the results depend on the processing

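No paired analysis was possible because the pools share no mouse number. The count of members called was 0 between EDL and TA and 0 between GS and TA under each of the alternatives that were run, with leave-one-out counts of 0 to 0 for both. The count of members with all EDL arrays below all GS arrays was 4 as deposited and 2 after quantile normalization. It was 4 to 6 when 1 mouse was left out, a step that cannot lower such a count. The filter on dim clusters kept 5 of the 8 members. The difference of Slc6a5 kept its sign under each alternative, from -0.86 to -0.25 between EDL and TA (adjusted p from 0.157 to 0.913), from 0.29 to 0.95 between GS and TA (adjusted p from 0.276 to 0.719) and from -1.46 to -0.92 between EDL and GS. M30 was strictly the highest array for 6 members as deposited and for 7 with the arrays centred on their medians or quantile normalized, settings added after the data were seen. Signal near the negative controls limits 7 of the 8 members.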
